A study of Homo sapiens with 4 samples.

Results

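Open chromatin was examined around 8 transcription start sites of 7 autophagy genes: SQSTM1 (with 2 start sites), MAP1LC3B, GABARAPL1, WIPI1, ULK1, BECN1 and TFEB. Members were all ATAC-seq peaks with a midpoint within 20 kb of these start sites on hg19, and peaks within 2 kb were taken as promoter peaks. Peaks of the 4 libraries that shared at least 1 bp were joined into regions, which gave 44 regions at these genes of 78788 in the whole series. The genes were chosen by peak lists of these same libraries, among them a strong region listed only after treatment at SQSTM1. Which peaks were listed in which group is therefore given as a description.

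ATAC-seq, in which a transposase inserts sequencing adapters into accessible DNA, was run on wild-type HCT116 cells, an established human colorectal cancer line. Tunicamycin blocks N-glycosylation and thereby loads the endoplasmic reticulum with misfolded proteins. It was given at 0.5 µg/ml for 6 h. Control cells received 0.1% DMSO, the vehicle, for the same time. Each group held 2 libraries of 50000 cells, described by the series as biological replicates, and both groups came from this single line. Where separate cultures are not stated, p-values measure only the spread between these libraries. The deposited lists held 56581 and 56566 peaks for DMSO replicates 1 and 2, and 58467 and 62526 for tunicamycin replicates 1 and 2. The read depth of the libraries is unknown here. Summits had a median of 15 reads, or 16 in tunicamycin replicate 2. In a bulk assay, more cells with an open site and a more open site in each cell cannot be told apart. Cell type markers were not checked here, because no hg19 annotation was used.

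Autophagy delivers cytoplasmic cargo to the lysosome inside a double-membraned autophagosome. ULK1 is the kinase that starts the process, BECN1 is a subunit of the phosphatidylinositol 3-kinase complex that marks the forming membrane, and WIPI1 binds that lipid mark. MAP1LC3B and GABARAPL1 belong to the ATG8 family, which is attached to the membrane, and SQSTM1 (p62) is a receptor that ties ubiquitinated cargo to these proteins. TFEB is a transcription factor for lysosomal and autophagy genes. Stress in the endoplasmic reticulum is known to induce several of these genes, in part through the transcription factor ATF4.

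RefSeq promoter windows (250 bases before to 50 after a start, GRCh38.p14) were found for 7 of 7 genes, in 11 windows. The 250 bases before the start are shown for the SQSTM1 start nearest to the strong treatment-associated region, for MAP1LC3B, whose promoter held another such region, and for GABARAPL1, a second ATG8 gene with a promoter peak in every library. Capitals mark motif matches. The SQSTM1 window (plus strand, chr5:179820655-179820904) belongs to a RefSeq start 14512 bp after the gene's 5′ end, beside 14454 bp between the 2 start sites used here. Distances on GRCh38 and on hg19 are each counted from their own start, and no position was converted between builds.
SQSTM1: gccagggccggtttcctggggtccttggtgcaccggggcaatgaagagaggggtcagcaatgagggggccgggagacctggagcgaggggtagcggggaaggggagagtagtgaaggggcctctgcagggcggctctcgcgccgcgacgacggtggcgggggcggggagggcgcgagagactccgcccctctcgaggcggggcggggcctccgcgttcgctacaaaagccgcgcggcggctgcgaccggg
MAP1LC3B (plus strand, chr16:87392086-87392335): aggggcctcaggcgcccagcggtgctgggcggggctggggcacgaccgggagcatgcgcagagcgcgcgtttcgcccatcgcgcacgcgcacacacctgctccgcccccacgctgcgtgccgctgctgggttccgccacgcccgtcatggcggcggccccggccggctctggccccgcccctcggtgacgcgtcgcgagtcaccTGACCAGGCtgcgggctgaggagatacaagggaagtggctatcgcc
GABARAPL1 (plus strand, chr12:10212627-10212876): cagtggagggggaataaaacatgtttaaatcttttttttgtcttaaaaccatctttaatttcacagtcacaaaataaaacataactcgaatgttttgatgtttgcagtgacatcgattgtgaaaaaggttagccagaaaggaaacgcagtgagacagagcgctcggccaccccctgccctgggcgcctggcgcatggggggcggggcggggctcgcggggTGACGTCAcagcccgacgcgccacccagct
The windows were searched on both strands for CACGTG (the E-box of the CLEAR element bound by TFEB), TGACNNNGC (the core of the antioxidant response element), TGATGNAA (the ATF4-C/EBP element), TGANTCA (AP-1), TGACGTGG (the unfolded protein response element), the endoplasmic reticulum stress element (ERSE) and, added after these windows had been seen, TGACGTCA (the cAMP response element). In MAP1LC3B, TGACCAGGC matched TGACNNNGC from 46 bases before the start. GABARAPL1 held TGACGTCA from 30 bases before its start. No match was found in the other 9 windows, and no matches overlapped. The strong SQSTM1 region lies 898 to 1050 bp downstream of its hg19 start, whereas a window ends 50 bases after its start. Sequences of the regions listed only after treatment were not searched on hg19. Of 34796 RefSeq promoter windows of 300 bases, 13.3% held TGACNNNGC and 1.84% held TGACGTCA, while 7.21% held CACGTG, 3.63% TGATGNAA, 7.73% TGANTCA, 0.733% TGACGTGG and 0.0776% the ERSE. The SQSTM1 and MAP1LC3B windows shown were 73% and 75.7% G or C, and that of GABARAPL1 51.7%, beside a median of 58.7% over all windows.

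Slightly more peaks were listed around the autophagy genes after tunicamycin. DMSO replicates 1 and 2 listed 31 and 30 peaks within 20 kb of the start sites, and tunicamycin replicates 1 and 2 listed 35 each. The groups did not overlap, and their means were 30.5 ± 0.707 and 35.0 ± 0 (SD, n = 2). The difference was 4.5 peaks, or 14.8%, where the whole lists differed by 6.93%. It is given without a test, since the genes were chosen from these lists. With every list cut to the length of the shortest, the difference was 2.5 peaks, and the library counts no longer separated the groups fully. Within 2 kb, 14 peaks were listed in each DMSO library and 17 and 16 in the tunicamycin libraries. Peaks covered 5979 and 6236 bp of the windows after DMSO and 7021 and 6807 bp after tunicamycin.

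**Figure D1:**
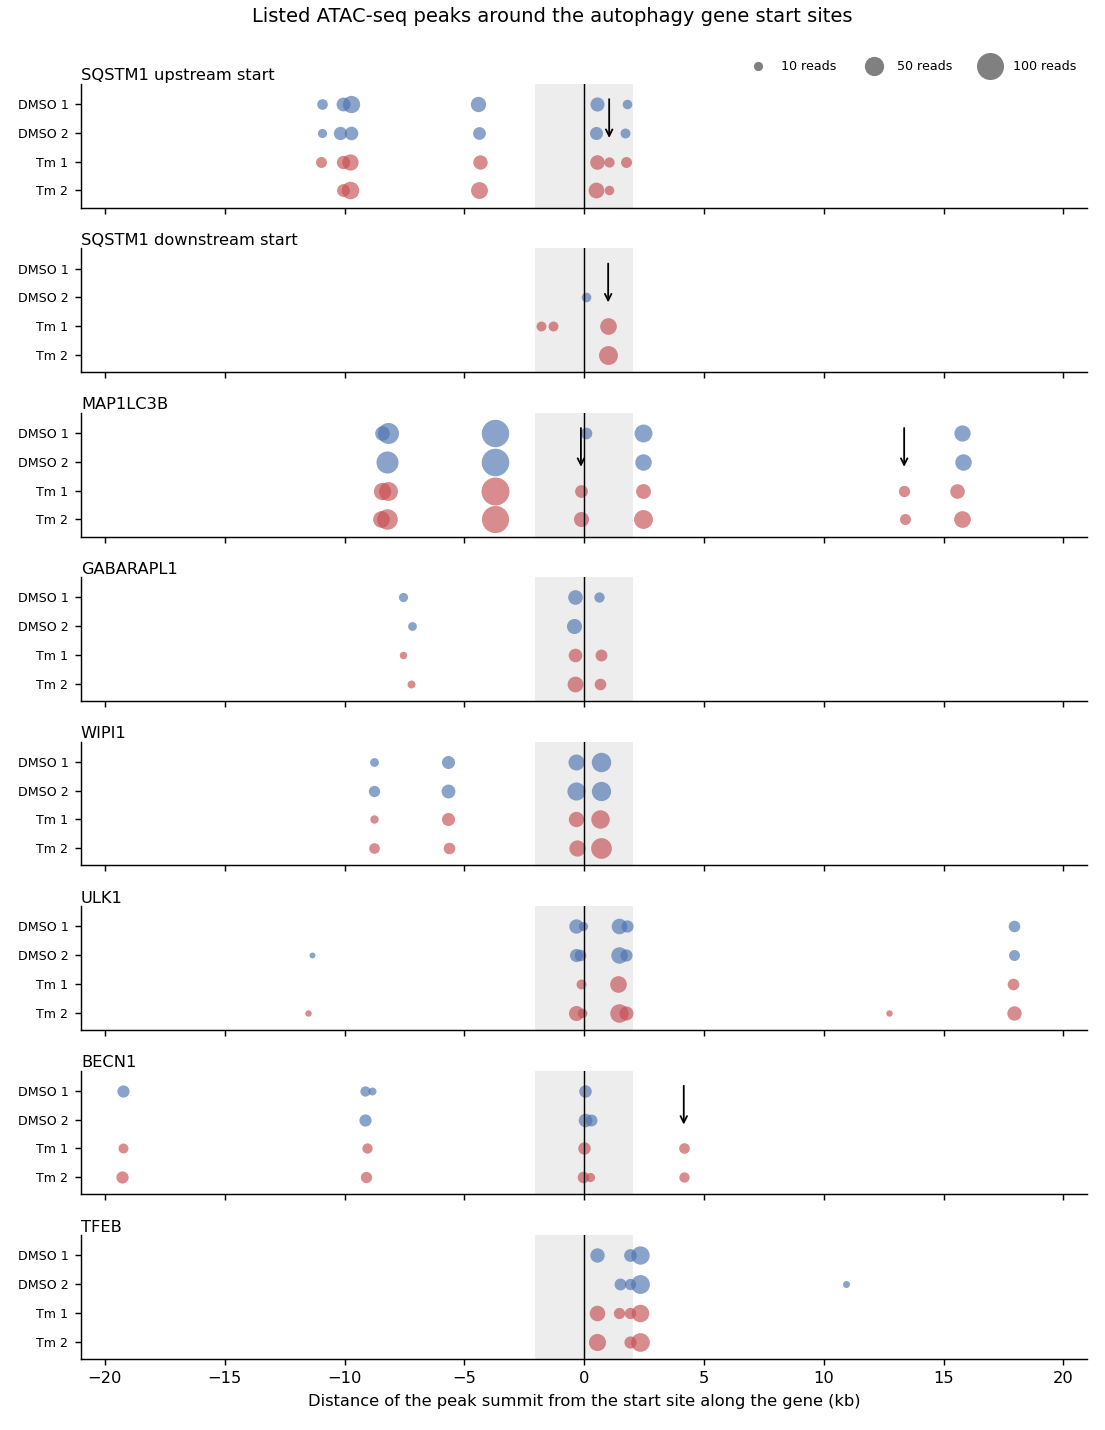
Listed peaks around each start site. The horizontal axis is the distance of the peak summit from the start site along the gene (kb), each row is a library (Tm, tunicamycin), and the area of a point grows with the summit pileup in reads. Grey marks the 2 kb on either side of the start, and arrows mark the 5 regions listed in each tunicamycin library but in no DMSO library, of which 2 lie at SQSTM1, 2 at MAP1LC3B and 1 at BECN1.

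The most frequent pattern at these genes was a peak in all 4 libraries. Of the 44 regions, 21 (47.7%) had a peak in all 4 libraries, called common here, and 5 (11.4%) were listed in each tunicamycin library but in no DMSO library, called gained. Over the whole series 51.3% of regions were common and 3.65% were gained. No region at these genes (0 of 44) showed the reverse pattern, called lost, which 1.86% of all regions had. Another 3 regions were listed in exactly 1 library of each group, 8 in 3 libraries and 7 in a single library. The count of 5 gained regions rested on DMSO replicate 1: without it 9 regions counted as gained, while 5 did without DMSO replicate 2. With any 1 of the 4 libraries left out, 2 regions counted as lost. Within 2 kb of a start site, 3 of 22 regions were gained, and farther out 2 of 22 were.

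BECN1 had a peak over its start site in all 4 libraries. At the SQSTM1 downstream start and at ULK1 only DMSO replicate 2 had one, and no library had a peak over the other 5 start sites. Common regions nevertheless lay within 2 kb of 6 of the 8 start sites. The exceptions were MAP1LC3B and the SQSTM1 downstream start, and both had a gained region there. The member nearest to the 20 kb limit lay 19254 bp upstream of BECN1, with 19, 12 and 19 reads in DMSO replicate 1 and tunicamycin replicates 1 and 2. The first region outside it lay 20957 bp from WIPI1, with 10 reads in DMSO replicate 2 and 12 in tunicamycin replicate 2.

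SQSTM1, the cargo receptor, carried the strongest gained region of the set, 974 bp downstream of its downstream start site. It lay on chromosome 5 at 179248740 to 179248892 (hg19). Its summit carried 37 reads in tunicamycin replicate 1 (exact Poisson 95% interval 26.1 to 51.0, for counting error only) and 48 in replicate 2 (35.4 to 63.6). Neither DMSO library listed a peak there. The peak was 153 bp wide in replicate 1 and 105 bp in replicate 2, and the 2 summits lay 10 bp apart. The authors' fold over the local background was 15.1 and 18.0, and the peaks stood at the percentile ranks 85.8 and 92.0 of their own lists.

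By the mean of these ranks the SQSTM1 region was number 7 of 2878 gained regions in the series. A peak can be missing from a list although reads were present, so the limit of listing matters. Among DMSO peaks with a local background within 20% of that at SQSTM1, the smallest listed summit carried 7 reads in each DMSO library. No list held a peak under 100 bp wide, and the SQSTM1 peak of tunicamycin replicate 2 had 105 bp. Peaks well above 7 reads were also missing from single lists. At TFEB, 606 bp downstream, DMSO replicate 2 listed none, beside 27 reads in DMSO replicate 1 and 32 and 39 in the tunicamycin replicates. How many reads DMSO held at the SQSTM1 position is therefore not known. The deposited peak numbers on either side of the position were consecutive in both DMSO lists, with 0 numbers missing, so no numbered peak had been left out there. The nearest listed DMSO peak was 800 bp away in replicate 2 and 13513 bp away in replicate 1.

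The rest of the SQSTM1 downstream promoter was weak and uneven. DMSO replicate 2 alone listed a peak over the start site itself, with 11 reads and a percentile rank of 7.41 in its list. Tunicamycin replicate 1 alone listed 2 peaks upstream of the start, with 12 reads each. Each of these 3 regions was seen in a single library. The nearest common region was 14899 bp from the gained one, measured between centres. In RefSeq on GRCh38.p14 the protein-coding neighbours of SQSTM1 are MGAT4B and MRNIP, and peaks were not assigned among neighbouring genes.

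The 3 gained regions of the series nearest to the SQSTM1 region in mean percentile rank had fewer reads at the summit. They lay on chromosome 2 at 69064513 to 69064624, with 29 and 25 reads in tunicamycin replicates 1 and 2, on chromosome 9 at 37840693 to 37840822, with 22 and 27, and on chromosome 7 at 66490559 to 66490690, with 25 and 20. Their folds ranged from 17.9 to 22.9, against 15.1 and 18.0 at SQSTM1, and their mean percentile ranks were 88.2, 86.7 and 85.1, beside 88.9 at SQSTM1. Likeness here means this rank alone, over the 2 tunicamycin lists.

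Around the upstream start of SQSTM1, 14454 bp away, the accessible sites were mostly common. The promoter region on chromosome 5 at 179233789 to 179234045, 529 bp downstream of that start, had 26 and 22 reads in DMSO replicates 1 and 2 and 28 and 33 in the tunicamycin replicates. Both tunicamycin counts lay above both DMSO counts, but read counts of separate libraries are not on a shared scale. The local background was 1.71 and 1.92 reads after DMSO and 1.80 and 2.25 after tunicamycin. A second, weak gained region lay 1078 bp downstream of the upstream start, at 179234363 to 179234570. Its summits carried 13 (6.92 to 22.2) and 11 reads (5.49 to 19.7), near the bottom of both lists at percentile ranks 13.1 and 3.23. It no longer counted as gained with lists of equal length or with a −log10 q of at least 5. The nearest DMSO peaks were 359 and 330 bp away.

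MAP1LC3B, which encodes LC3B, had a gained region in its promoter. The region lay on chromosome 16 at 87425557 to 87425722, from 244 to 79 bp upstream of the start site. The summit carried 21 reads in tunicamycin replicate 1 (13.0 to 32.1) and 30 in replicate 2 (20.2 to 42.8), and the summits lay 1 bp apart. These peaks stood at percentile ranks 29.8 and 53.7 of their lists, and 15.9% of all gained regions ranked higher. The local background was high here, at 2.57 and 2.81 reads, and at a like background the smallest summit in either DMSO list carried 10 reads.

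DMSO replicate 1 did list a peak beside it. That peak began 83 bp beyond the gained region, had its summit 73 bp downstream of the start and carried 17 reads. With peaks up to 250 bp apart merged, the MAP1LC3B promoter region was therefore not gained. DMSO replicate 2 listed no peak within 2 kb of the MAP1LC3B start, and its nearest was 2448 bp from the gained region. The match to TGACNNNGC shown above begins 46 bases before the RefSeq start, and the gained region ends 79 bp before the hg19 start site, each counted on its own build. Whether these starts are the same base was not checked, so the distance between the match and the gained region is not known.

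A weaker gained region lay 13315 bp downstream of the MAP1LC3B start, at 87439020 to 87439212, with 16 (9.15 to 26.0) and 15 reads (8.40 to 24.7). Its peaks were 173 and 192 bp wide, and the nearest DMSO peaks were 2058 and 2066 bp away. It no longer counted as gained with a −log10 q of at least 10. BECN1 had a gained region 4160 bp downstream of its start, on chromosome 17 at 40972091 to 40972210, with 14 (7.65 to 23.5) and 13 reads (6.92 to 22.2). This one was narrow, at 104 and 114 bp. In both cases the DMSO peak numbers on either side were consecutive.

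**Figure D2:**
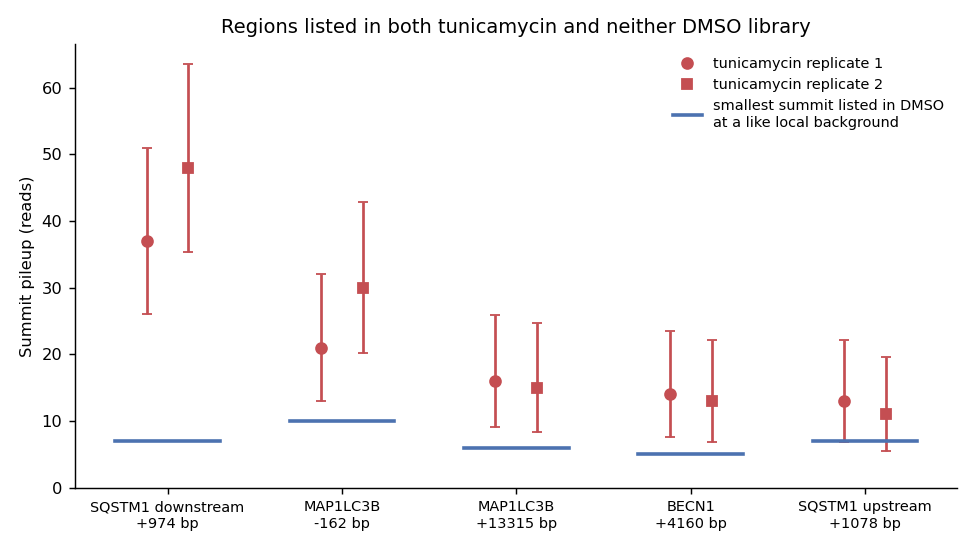
Summit pileup (reads) of the 5 gained regions in the 2 tunicamycin libraries, with exact Poisson 95% intervals as bars. Blue lines give the smallest summit listed in a DMSO library at a like local background. The SQSTM1 downstream region has the highest summits, at 37 and 48 reads, and the weakest region, at the SQSTM1 upstream start, has intervals that reach down to the blue line.

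The strength of common regions was compared through ranks, because folds and read counts of separate lists are not on a shared scale. In each library the common regions of the whole series were ranked by the q-value of their best peak, and the ranks were turned into normal scores and fitted with limma. None of the 21 common regions at the autophagy genes passed Benjamini-Hochberg adjustment over 40447 regions at 0.05, where 0.0519% of all common regions did (0.0346% with higher and 0.0173% with lower scores after tunicamycin). The limma adjusted p-values ranged from 0.591 to 0.966. At an unadjusted p under 0.05, limma listed 2 of the 21, or 9.52%, beside 7.33% of all.

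Although no region passed, more differences between tunicamycin and DMSO lay below 0 than above it. The difference was below 0 in 16 of 21 regions (76.2%), against 50% of all common regions, and its median was -0.33 units beside 0.00 over all regions. Without tunicamycin replicate 1 the median was -0.14 units and the share below 0 was 59.1%. Both tunicamycin ranks lay below both DMSO ranks in 9 regions (42.9%) and above in 3 (14.3%), where 18.3% and 18% of all common regions did so. The 21 regions come from 7 loci and the same 4 libraries and are not independent of each other. The median standard error of a single difference was 0.356 units.

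**Figure D3:**
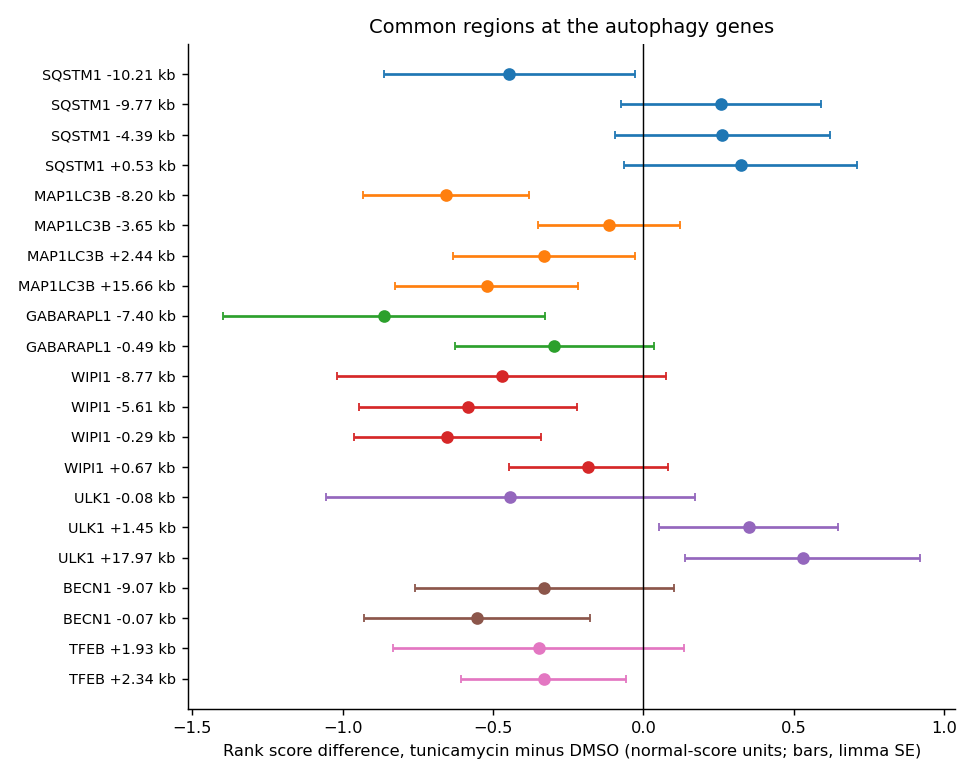
Difference in rank score of the 21 common regions (tunicamycin minus DMSO, normal-score units), with the limma standard error as bars. Labels give the gene and the distance of the region from its start site in kb. All 4 regions of MAP1LC3B, all 4 of WIPI1 and both of GABARAPL1, BECN1 and TFEB lie below 0, and 3 of 4 at SQSTM1 and 2 of 3 at ULK1 lie above it, none past the adjusted threshold.

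ULK1, the initiating kinase, had 7 regions. The strongest in its promoter, 1452 bp downstream of the start on chromosome 12 at 132380609 to 132380854, had percentile ranks among the common regions of 73.3 and 78.4 in DMSO replicates 1 and 2 and of 84.0 and 86.7 in the tunicamycin replicates. Both tunicamycin ranks were the higher ones, with a score difference of 0.35 ± 0.297 (SE, limma adjusted p = 0.865). Summits there carried 32 and 36 reads after DMSO and 37 and 46 after tunicamycin. The common region nearest to the ULK1 start, 76 bp upstream at 132379108 to 132379299, differed in the opposite direction. It was weak, with ranks of 0.927 and 15.6 after DMSO and 4.19 and 0.583 after tunicamycin, which overlap (-0.44 ± 0.612, SE, limma adjusted p = 0.938). A distal region 17971 bp downstream had the largest score difference of the gene, which did not pass the test (0.53 ± 0.392, SE, limma adjusted p = 0.838), with ranks of 38.6, 30.0, 39.5 and 69.4 in the same order of libraries. Tunicamycin replicate 2 stood apart there, and the other 3 ranks lay close together. Next to the start site, peaks 329 bp upstream (27, 22 and 30 reads) and 1762 bp downstream (19, 19 and 26 reads) were missing from the list of tunicamycin replicate 1 alone.

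BECN1 was open over its start site in every library. The region on chromosome 17 at 40976213 to 40976537 carried 20 and 24 reads in DMSO replicates 1 and 2 and 20 and 17 in tunicamycin replicates 1 and 2. Its percentile ranks were 54.0 and 66.1 after DMSO and 48.8 and 28.7 after tunicamycin. The groups did not overlap, and the score difference was -0.55 ± 0.376 (SE, limma adjusted p = 0.816), or -0.28 without tunicamycin replicate 2. A small peak 271 bp downstream was listed in DMSO replicate 2 (18 reads) and tunicamycin replicate 2 (10 reads) only.

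WIPI1 was the most evenly listed gene, with 4 of 4 regions common. Its strongest region, 669 bp downstream of the start on chromosome 17 at 66452894 to 66453077, carried 51 and 50 reads after DMSO and 46 and 58 after tunicamycin. The ranks of 96.3, 94.1, 90.9 and 94.9 in the same order overlapped between the groups (score difference -0.18 ± 0.265, SE, limma adjusted p = 0.941). Without tunicamycin replicate 1 that difference was -0.032 units. The region 289 bp upstream, at 66453743 to 66454144, had ranks of 78.5 and 89.6 after DMSO and 63.7 and 65.3 after tunicamycin. These did not overlap, and the difference was -0.65 ± 0.311 (SE, limma adjusted p = 0.656).

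Common regions at MAP1LC3B lay outside the promoter. The strongest of all members, 3650 bp upstream of its start on chromosome 16 at 87421969 to 87422334, carried 103 and 104 reads after DMSO and 107 and 101 after tunicamycin. All 4 ranks were at or above 99.3. A region 8199 bp upstream, at 87417499 to 87417705, had ranks of 93.8 and 95.2 after DMSO and 80.8 and 84.6 after tunicamycin, without overlap, and the smallest limma adjusted p of the set (-0.66 ± 0.276, SE, limma adjusted p = 0.591). Beside it, 8457 bp upstream, a narrow peak of 28 reads in DMSO replicate 1 and of 40 and 37 reads in the tunicamycin replicates was missing from DMSO replicate 2. In RefSeq on GRCh38.p14 the protein-coding neighbours of MAP1LC3B are FBXO31 and ZCCHC14.

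GABARAPL1, the other ATG8 gene, had its promoter region 492 bp upstream of the start, on chromosome 12 at 10364840 to 10365155. Summits carried 28 and 30 reads after DMSO and 24 and 33 after tunicamycin, which overlap. The ranks, at 69.7 and 74.2 after DMSO and 52.6 and 69.4 after tunicamycin, did not (-0.30 ± 0.331, SE, limma adjusted p = 0.910). Without tunicamycin replicate 1 the difference was -0.073 units. A smaller peak 649 bp downstream had 13 reads in DMSO replicate 1, none listed in DMSO replicate 2, and 18 and 17 in the tunicamycin replicates. The largest score difference of all members lay 7398 bp upstream, at 10357857 to 10358326 (-0.86 ± 0.534, SE, limma adjusted p = 0.780), where summits carried 10, 9, 6 and 7 reads. The peaks of replicate 1 and replicate 2 there were side by side and were joined only by their overlap across groups, so that their ranks describe different stretches of the region.

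TFEB, the transcription factor of the set, showed 2 common regions, both with a score difference below 0. The stronger one, 2341 bp downstream on chromosome 6 at 41701581 to 41701731, lay just outside the promoter limit, with 45 and 48 reads after DMSO and 41 and 47 after tunicamycin, and with ranks of 92.7, 93.1, 86.9 and 87.6. The other, 1930 bp downstream and just inside the limit, had ranks of 36.8, 12.4, 12.6 and 14.9, so that DMSO replicate 1 stood apart. Its difference was -0.35 ± 0.482 (SE, limma adjusted p = 0.938), and 0.048 ± 0.590 without DMSO replicate 1 (limma adjusted p = 0.995). Nearer the start, 606 bp downstream, a region had 27 reads in DMSO replicate 1 and 32 and 39 in the tunicamycin replicates and was not listed in DMSO replicate 2.

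**Figure D4:**
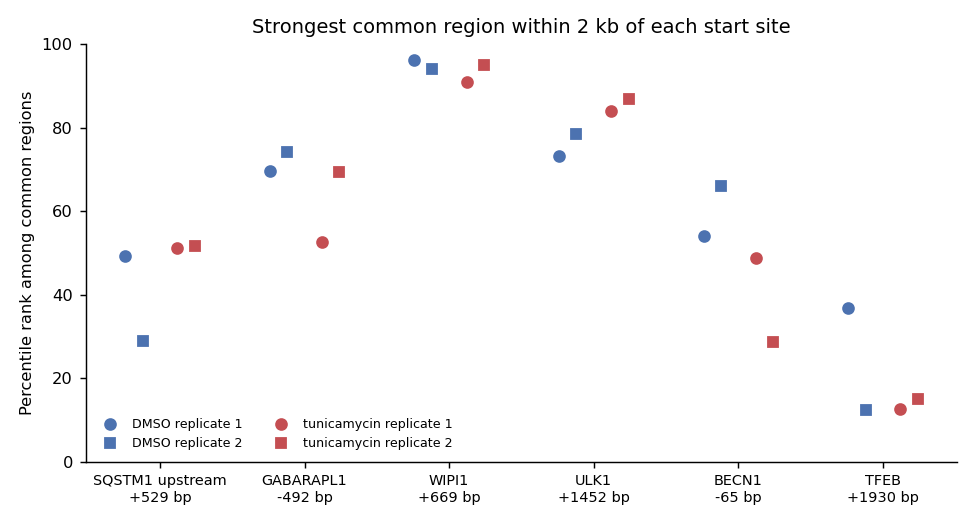
Percentile rank among all common regions, by q-value, of the strongest common region within 2 kb of each start site that had one. Points are single libraries, labelled by their distance from the start. At ULK1 (84.0 and 86.7) and at the SQSTM1 upstream start both tunicamycin ranks lie above both DMSO ranks, at BECN1 and GABARAPL1 both lie below, and at WIPI1 and TFEB the groups overlap.

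Of the 4 common regions at SQSTM1, 3 had a score difference above 0, and none passed the test. At the upstream start the promoter region had ranks of 49.1 and 29.0 after DMSO and 51.1 and 51.7 after tunicamycin (0.32 ± 0.387, SE, limma adjusted p = 0.923). Without DMSO replicate 2, the library with the low rank, the difference was 0.054 units. The regions 9765 and 4390 bp upstream of that start differed by 0.26 and 0.26 units, each with a wide gap between the DMSO libraries (40 and 24 reads, and 31 and 21 reads). The region 10214 bp upstream had ranks of 45.2 and 41.5 after DMSO and 36.0 and 19.3 after tunicamycin, the largest difference at this gene (-0.45 ± 0.417, SE, limma adjusted p = 0.883).

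Regions listed in 3 of the 4 libraries lacked a peak in different libraries at different genes. Of these 8 regions at the autophagy genes, DMSO replicate 2 lacked 4, at MAP1LC3B, GABARAPL1, BECN1 and TFEB. Tunicamycin replicate 1 lacked the 2 at ULK1, tunicamycin replicate 2 lacked the 2 at the SQSTM1 upstream start, and DMSO replicate 1 lacked 0. Over the whole series DMSO replicates 1 and 2 lacked 3037 and 3059 of 10102 such regions, and tunicamycin replicates 1 and 2 lacked 2555 and 1451.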

How the data were processed

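ATAC-seq peak lists of 4 HCT116 libraries were used, grouped by their titles. The submitters' processing notes name hg19, MACS2 2.2.7.1, deepTools, Picard 2.18.23, SAMtools, Bowtie2 2.3.5.1 and Trim Galore, without settings. The authors deposited per peak a score, a fold (a ratio to the local background), −log10 p and −log10 q-values and a summit position; the lists came without a header. Whether reads were shifted for the transposase is not given in the sources used here.

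Summit reads were recovered as the whole number that gives both the deposited fold and the −log10 p-value. For 131 peaks at the members the −log10 p-value matched within 0.000281. What the caller piled up is not known, and intervals cover counting error only. Lists were merged at 1 bp (Python 3.11.15, pandas 2.3.3, numpy 2.4.6, scipy 1.17.1). Rank scores went into limma 3.58.1 under R 4.3.3 (trend on, Benjamini-Hochberg over all common regions, threshold 0.05). Merging was tested on simulated peaks that lay far apart, and the rank comparison on simulated scores. Peaks lying side by side, as at GABARAPL1 and MAP1LC3B, were not simulated.

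The genes, lists and tests were chosen with earlier results of these data known. Named regions were the strongest common region within 2 kb of each start site, every gained or lost region, and per gene the common region with the largest score difference; others described were chosen after their values were seen. A list of further autophagy genes and of colon epithelium markers was not analysed here, since it needs an hg19 annotation.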

Additional observations from a re-analysis of the deposited data

How the results depend on the processing

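Within these lists, an absent peak means that no peak passed the caller, and low summit counts limit what could be listed. No listed peak was under 100 bp wide. The peak difference of 4.5 ranged from 2.5 with lists of equal length to 5.5 with a −log10 q of at least 5. With each library left out it ranged from 4 to 5. The genes were chosen from these same lists, so a difference above 0 was partly built in. These recounts, and those of gained regions, are a description and give no independent support. Gained regions at the autophagy genes numbered 4 with a −log10 q of at least 5 or 10, with lists of equal length, within 10 kb and with peaks up to 250 bp apart merged, and 5 to 9 with each library left out. The number lost was 0 in all of these but 2 with any 1 library left out, where a single list stands for 1 group. The SQSTM1 downstream region and the BECN1 region were gained in each of the 5 alternatives of threshold, list length or overlap, and the MAP1LC3B promoter region in all but the merging of near peaks. The 4 regions gained at a −log10 q of at least 10 were not all among the 5 described above. They included the GABARAPL1 region 649 bp downstream, whose DMSO replicate 1 peak had a −log10 q of 8.16 and fell under that cut.

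Limma called 0 of the common regions at these genes under each of 13 alternatives, with 0 to 3 at an unadjusted p under 0.05, and the share of differences below 0 ranged from 59.1% without tunicamycin replicate 1 to 77.8% within 10 kb. With the replicate number as a block limma also called 0 at these genes. Over all common regions it called 35 with the block beside 21 without, and 0 to 30 under the other alternatives. The libraries share only a number: the differences between replicates 1 and 2 in DMSO and in tunicamycin correlated by 0.0111 across 40447 regions. The TFEB promoter difference ranged from -0.73 to 0.048 with each library left out, reversing without DMSO replicate 1, and the other 5 promoter differences kept their direction under 12 alternatives each but not their size. With each library left out they ranged from 0.054 to 0.56 at the SQSTM1 upstream start, from -0.51 to -0.073 at GABARAPL1, from -0.33 to -0.032 at WIPI1, from 0.26 to 0.42 at ULK1 and from -0.79 to -0.28 at BECN1.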
